A study of Homo sapiens with 4 samples.

Results

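The genes examined here encode the enzymes that make serine from glycolytic carbon and the enzymes that turn serine into folate-bound one-carbon units. They were chosen by name from the expression table: PHGDH, PSAT1 and PSPH for serine synthesis, SHMT2, MTHFD2, MTHFD2L and MTHFD1L for the mitochondrial folate pathway, and SHMT1 and MTHFD1 for the cytosolic folate pathway. All 9 were found among the 25268 gene symbols of the table. RNA-Seq was performed on SK-MEL-28, an established human melanoma cell line, in which lentiviral transduction had introduced either an empty pTRIPZ vector (control line) or a MYC gene under a Tet-inducible promoter (MYC line). Each line was sequenced without doxycycline (Dox) and after 54 h with Dox. The 4 conditions thus were the control line without Dox, the control line with Dox, the MYC line without Dox and the MYC line with Dox, and all cells were grown in medium with G418. Each condition has 1 library, so no difference between conditions could be tested and no p-value is given.

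In serine synthesis, PHGDH oxidises the glycolytic intermediate 3-phosphoglycerate, PSAT1 transfers an amino group to the product from glutamate, and PSPH removes the phosphate. SHMT2 in mitochondria and SHMT1 in the cytosol split serine into glycine and a one-carbon unit that is carried on tetrahydrofolate. In mitochondria, MTHFD2 or its relative MTHFD2L oxidises that unit and MTHFD1L releases it as formate, while MTHFD1 carries out the corresponding steps in the cytosol. The units are used for purines, thymidylate and methionine. Many of these genes are known as targets of MYC and of the stress-response factor ATF4, and MTHFD2 is known for high levels in many tumors and low levels in most adult tissues.

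With Dox, 4 of the enzyme genes rose at least 1.5-fold in the MYC line: MTHFD2 1.87-fold, PSAT1 1.67-fold, MTHFD1L 1.57-fold and SHMT2 1.56-fold, beside 5.9% of all genes tested. They include every member of the mitochondrial folate group that was expressed at 1 FPKM or more, and 1 of the 3 serine synthesis genes. The other 4 expressed members stayed below 1.5-fold, and the folds were 1.27 for MTHFD1, 1.25 for PSPH, 1.06 for PHGDH and 0.994 for SHMT1. In the control line no member reached 1.5-fold in either direction.

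The values were FPKM, fragments scaled to the length of the transcript and to the mapped fragments of the library. The smallest values of the table gave an approximate depth of 3.50e+07 to 4.20e+07 fragments per library, from which an approximate counting error follows for each value. It describes fragment sampling alone, and differences between cultures are outside it. MYC itself had 58.3 FPKM in the control line without Dox, 54.8 FPKM in the control line with Dox, 76.5 FPKM in the MYC line without Dox and 87.1 FPKM in the MYC line with Dox. In these FPKM values its log2 change with Dox was thus small, 0.19 in the MYC line and -0.09 in the control line. Of all genes tested, 26.7% had a change at least as high in the MYC line. The untreated lines differed by more, 0.39 on the log2 scale. Of 8 melanocyte lineage markers, 8 were at 1 FPKM or more in every library. Their summed level was 8433 to 8578 FPKM in 3 libraries and 4666 FPKM in the MYC line with Dox, and most of this sum was PMEL, a melanosome protein, which in the MYC line went from 6178 to 3394 FPKM. Of the 8 markers, 5 fell at least 1.5-fold in the MYC line with Dox, while MITF, SOX10 and DCT had log2 changes of -0.42, -0.30 and -0.43. Most lineage markers were thus lower in the library in which enzyme genes were higher, and their part in the results was not tested. In bulk RNA, a higher level per cell and more cells with the gene cannot be told apart. Of 11 markers of epithelial, leukocyte, endothelial and fibroblast cells, 10 were below 1 FPKM in every library, and the exception was EPCAM with 0.658 to 0.769 FPKM in the other libraries and 2.71 FPKM in the MYC line with Dox.

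The members were expressed at very different levels. PHGDH was the most abundant in every library, with 240.2 to 279 FPKM, and SHMT2 was the next in all 4, with 79.1 to 126 FPKM. In the control line without Dox, MTHFD2, PSAT1, MTHFD1, MTHFD1L and SHMT1 followed within a narrow band, from 36.3 FPKM for MTHFD2 to 25.6 FPKM for SHMT1. PSPH had 10.3 FPKM and MTHFD2L 0.270 FPKM. Neighbours in this band lay close: MTHFD2 was 1.82 FPKM above PSAT1, with a counting error of 0.782 FPKM for the difference. MTHFD1 was 1.202 FPKM above MTHFD1L in the MYC line without Dox, with a counting error of 0.690 FPKM. In the control line without and with Dox, MTHFD1 was 4.09 and 3.54 FPKM above MTHFD1L, with counting errors of 0.689 and 0.712 FPKM. MTHFD1 was thus the higher gene within each of the 3 libraries other than the MYC line with Dox. Only the ranges across these libraries overlapped, at 30.9 to 33.5 FPKM for MTHFD1 and 27.4 to 32.3 FPKM for MTHFD1L. In the MYC line with Dox the order of these 2 genes was the opposite, with MTHFD1L 8.03 FPKM above MTHFD1 and a counting error of 0.849 FPKM.

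**Figure D1:**
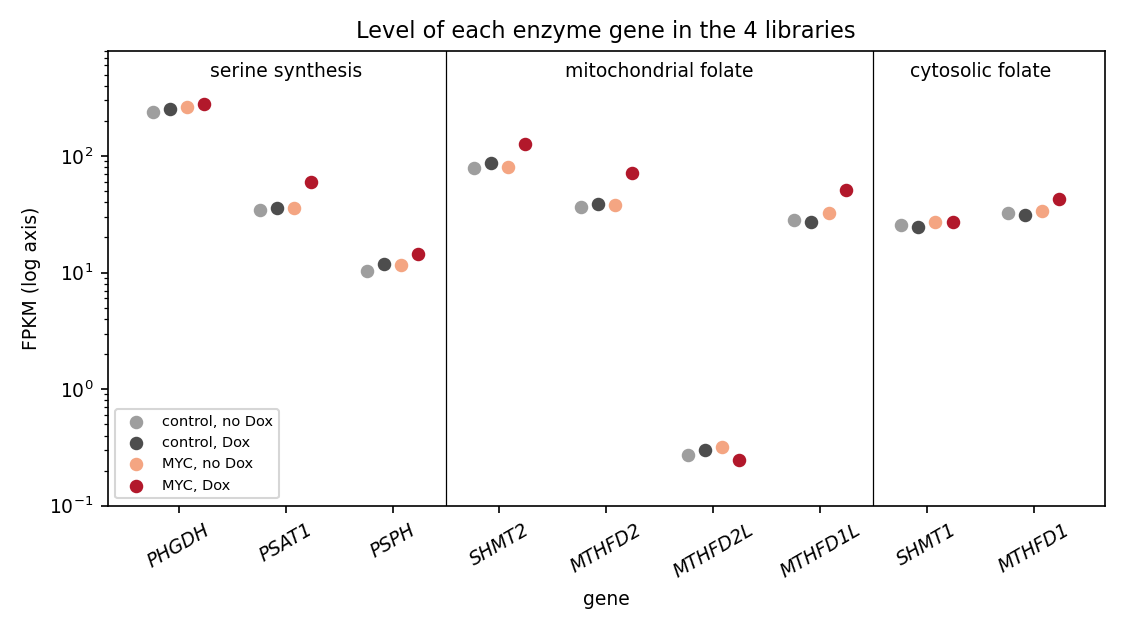
FPKM on a log axis for the 9 enzyme genes in the 4 libraries, 1 point per library, with vertical lines between the 3 pathway groups. The red points of the MYC line with Dox stand clear of the other 3 for PSAT1, SHMT2, MTHFD2 and MTHFD1L, while the points of PHGDH and SHMT1 lie close together and MTHFD2L stays below 1 FPKM.

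MTHFD2 lies on chromosome 2 of GRCh37 from 74413299 to 74444692. It had 36.3 FPKM in the control line without Dox, 38.5 FPKM in the control line with Dox, 38.0002 FPKM in the MYC line without Dox and 71.2 FPKM in the MYC line with Dox. The first 3 libraries thus lay close together and the last stood apart. On the log2 scale MTHFD2 changed by 0.90 in the MYC line (counting error 0.0216) and 0.08 in the control line (counting error 0.0262). Of the 11147 genes tested, 1.53% had a change at least as high in the MYC line.

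SHMT2, on chromosome 12 from 57623356 to 57628718, supplies the mitochondrial pathway with one-carbon units from serine. It had 79.1 and 86.3 FPKM in the control line without and with Dox, and 80.8 and 126 FPKM in the MYC line without and with Dox. The log2 change was 0.64 in the MYC line (counting error 0.0219), near the threshold of 0.585 that corresponds to 1.5-fold, and 0.13 in the control line (counting error 0.0251). Set against the control line with Dox, SHMT2 was 1.46-fold higher in the MYC line with Dox, below 1.5-fold.

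MTHFD1L, on chromosome 6 from 151186815 to 151423023, catalyses the last step of the mitochondrial pathway. It had 28.4 and 27.4 FPKM in the control line without and with Dox, and 32.3 and 50.7 FPKM in the MYC line without and with Dox. The log2 change was 0.65 in the MYC line (counting error 0.0274) and -0.05 in the control line (counting error 0.0343). Among the members tested it also had the largest difference between the untreated lines, 0.19 on the log2 scale with a counting error of 0.0315, so the comparison between both Dox-treated lines, at 1.85-fold, was larger than the comparison within the MYC line.

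MTHFD2L, the relative of MTHFD2 on chromosome 4 from 74979891 to 75168816, was close to silent. It had 0.270 FPKM in the control line without Dox, 0.301 FPKM in the control line with Dox, 0.321 FPKM in the MYC line without Dox and 0.247 FPKM in the MYC line with Dox. These values correspond to approximately 22.8 to 31.8 fragments per library. It was therefore left out of the counts of changed genes, and a difference between its libraries was not detectable at this depth. MTHFD2 exceeded MTHFD2L 118-fold to 288-fold across the libraries.

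The serine synthesis genes did not move as a block. PSAT1, on chromosome 9 from 80912041 to 80945009, had 34.5 and 36.1 FPKM in the control line without and with Dox, and 35.5 and 59.4 FPKM in the MYC line without and with Dox. The log2 change was 0.74 in the MYC line (counting error 0.0322) and 0.07 in the control line (counting error 0.0380). PHGDH, on chromosome 1 from 120191034 to 120286841, catalyses the step before PSAT1 and had 240.2 and 254 FPKM in the control line and 263 and 279 FPKM in the MYC line. Its log2 change was 0.09 in the MYC line (counting error 0.0142) and 0.08 in the control line (counting error 0.0156), and these 2 changes differed by 0.01 with a counting error of 0.0211. The values of PHGDH depended on the scaling of the libraries: they were 0.13 and 0.07 in the MYC and control lines with scaling by the median ratio, and 0.04 and 0.06 with equal sums of FPKM. PSPH, on chromosome 7 from 56078744 to 56119297, catalyses the step after PSAT1 and had 10.3 and 11.8 FPKM in the control line and 11.5 and 14.5 FPKM in the MYC line. Its log2 change was 0.32 in the MYC line (counting error 0.0635) and 0.20 in the control line (counting error 0.0720), a difference of 0.13 with a counting error of 0.0960. The ratio of PHGDH to PSAT1 was 6.96 to 7.41 in 3 libraries and 4.70 in the MYC line with Dox, so these neighbouring steps moved by unequal amounts.

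In the cytosolic pair neither gene reached 1.5-fold. SHMT1, on chromosome 17 from 18231174 to 18266877, had 25.6 and 24.8 FPKM in the control line without and with Dox, and 27.4 and 27.2 FPKM in the MYC line without and with Dox. Its log2 change was -0.01 in the MYC line (counting error 0.0386) and -0.05 in the control line (counting error 0.0421). MTHFD1, on chromosome 14 from 64854749 to 64930175, had 32.4 and 30.9 FPKM in the control line, and 33.5 and 42.7 FPKM in the MYC line. Its log2 change was 0.35 in the MYC line (counting error 0.0294) and -0.07 in the control line (counting error 0.0336). In the MYC line, MTHFD1 with Dox thus lay above its other 3 libraries but below 1.5-fold.

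**Figure D2:**
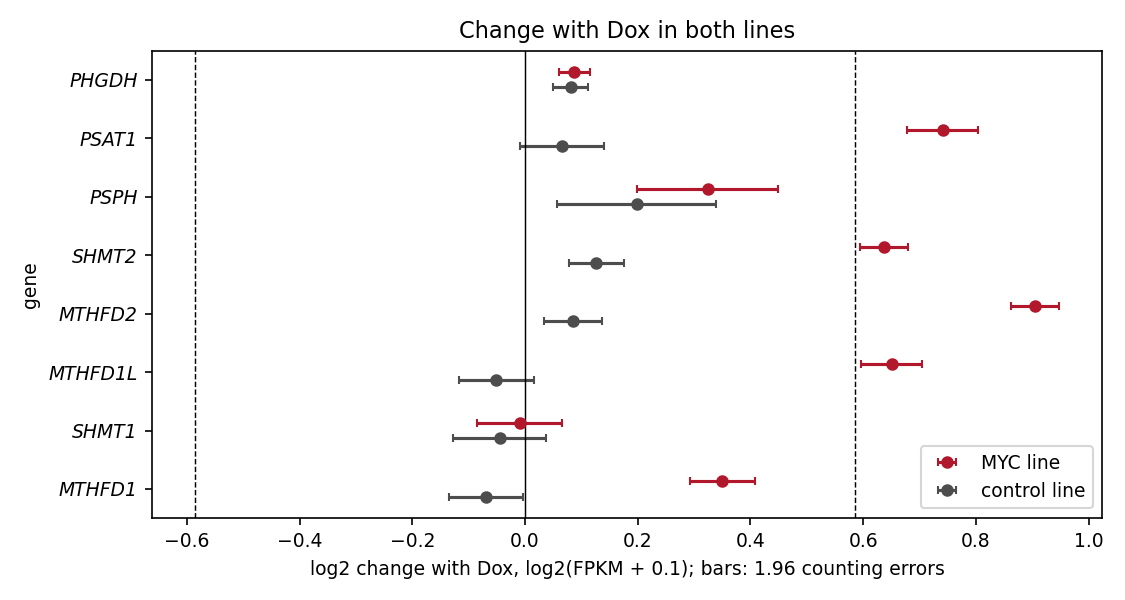
Change with Dox on the scale log2(FPKM + 0.1) for the 8 members averaging 1 FPKM or more, in the MYC line (red) and the control line (grey), with bars of 1.96 approximate counting errors and dashed lines at 1.5-fold. MTHFD2, PSAT1, MTHFD1L and SHMT2 lie past the line at 1.5-fold in the MYC line, from 0.64 to 0.90, whereas the control line values lie between -0.07 and 0.20.

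Over the whole table, 5.9% of the 11147 genes averaging 1 FPKM or more were at least 1.5-fold higher with Dox in the MYC line and 8.85% were at least 1.5-fold lower. These shares are 658 and 986 genes, and the numbers were 809 and 845 with scaling by the median ratio and 525 and 1147 with equal sums of FPKM. Of the 8 members tested, 4 were higher by this measure and 0 were lower. In the control line 0.709% of all genes were at least 1.5-fold higher and 0.44% lower, and 0 of the 8 members passed in either direction. The change in the MYC line exceeded that in the control line at least 1.5-fold for 5.85% of all genes and fell short of it by as much for 9.72%. Among the members, PSAT1, MTHFD2 and MTHFD1L exceeded it by that much and none fell short, with 0.51 for SHMT2, 0.42 for MTHFD1, 0.13 for PSPH, 0.04 for SHMT1 and 0.01 for PHGDH. The level in the MYC line with Dox was above all 3 other libraries for 7 of the 8 members, the exception being SHMT1, and for 40.2% of all genes. The median log2 change of the members was 0.49 in the MYC line and 0.07 in the control line, beside -0.03 and 0.01 over all genes. By group, the median in the MYC line was 0.65 for the mitochondrial folate genes, 0.32 for the serine synthesis genes and 0.17 for the cytosolic pair, over 3, 3 and 2 genes.

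**Figure D3:**
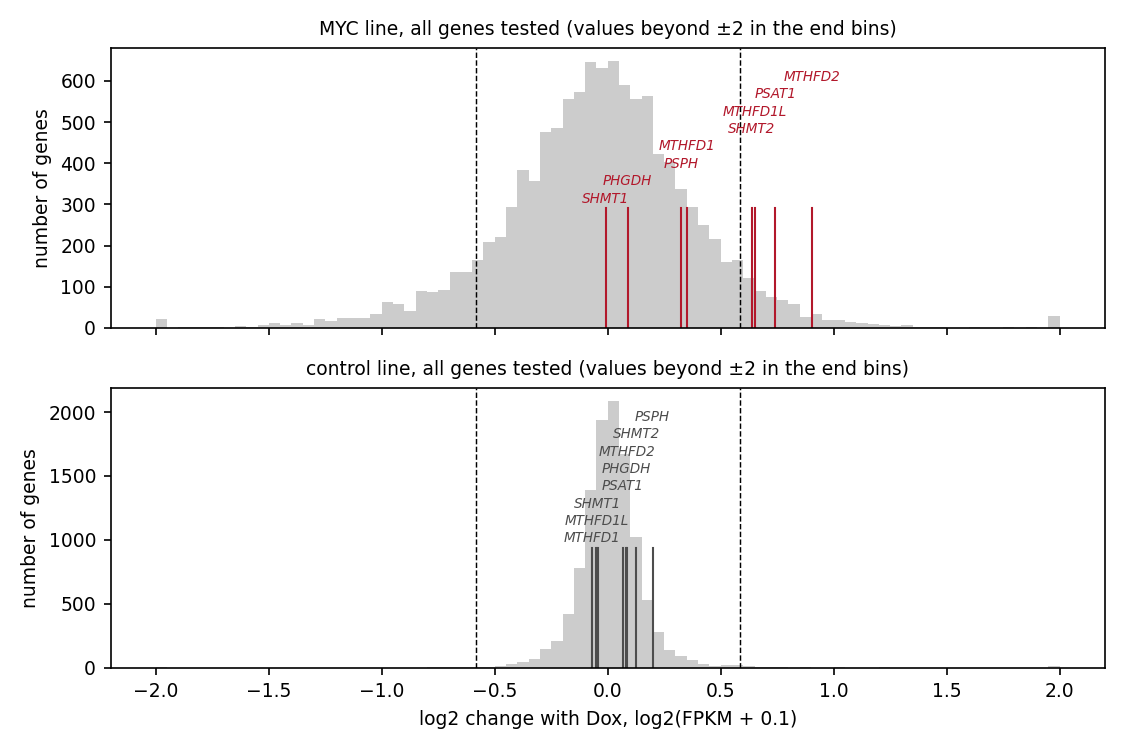
Number of genes by log2 change with Dox in the MYC line (upper) and the control line (lower) for the 11147 genes tested, with the 8 members as vertical lines and dashed lines at 1.5-fold. In the MYC line 4 members lie in the upper tail and the others within the bulk of genes. In the control line the members lie within the narrow bulk, except that PSPH at 0.20 lies near its upper edge.

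Corresponding enzymes of mitochondria and cytosol were compared in pairs within each library, since FPKM is per length. MTHFD1 also covers the cytosolic counterpart of the MTHFD2 steps, so its pair with MTHFD1L is not a match of single steps. The level of SHMT2 was 3.09 times that of SHMT1 in the control line without Dox (counting error 0.0721), 3.48 times with Dox (0.0858), 2.95 times in the MYC line without Dox (0.0648) and 4.63 times with Dox (0.0998). The ratio of MTHFD1L to MTHFD1 was 0.874 and 0.885 in the control line without and with Dox, and 0.964 and 1.19 in the MYC line without and with Dox, with counting errors of 0.0198, 0.0216, 0.0202 and 0.0217 in that order. Both ratios were highest in the MYC line with Dox. Within the mitochondrial pathway, the ratio of SHMT2 to MTHFD1L was 2.504 and 2.48 without and with Dox in the MYC line, with counting errors of 0.0469 and 0.0384, and 2.79 and 3.15 in the control line, with counting errors of 0.0566 and 0.0673. This ratio thus differed more between the lines than with Dox in the MYC line, and in the control line it also rose with Dox, from 2.79 to 3.15. Summed over the group, the mitochondrial folate genes had 144 to 153 FPKM in 3 libraries and 248 FPKM in the MYC line with Dox. The cytosolic pair summed to 55.7 to 60.8 FPKM in the same 3 libraries and 69.9 FPKM in the MYC line with Dox.

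The untreated lines were compared as well, because the MYC line without Dox already had more MYC than the control line. All 8 members tested were higher in the untreated MYC line than in the untreated control line, by 0.03 to 0.19 on the log2 scale, as were 59.5% of all genes tested, whose median difference was 0.02. PHGDH differed by 0.13 (counting error 0.0148), which was more than its change with Dox in either line before any rescaling of the libraries. With scaling by the median ratio its change with Dox in the MYC line was 0.13. The difference between the untreated lines was not recalculated with that scaling, so this order may depend on it. The MYC line library without Dox is also the reference of the Dox comparison in that line, so these values and those above share a library.

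The promoters of the members were read as sequence context from the RefSeq promoter table on build GRCh38.p14, which holds 7 of the 9 genes. Shown are the 250 bases before the annotated start, on the strand of the gene, for 3 genes that rose at least 1.5-fold (MTHFD2, PSAT1 and MTHFD1L) and for both cytosolic genes, which did not (MTHFD1L has 4 listed starts). Capitals mark the E-box bound by MYC with its partner MAX (CACGTG), the composite element bound by ATF4 with C/EBP factors (TGATGNAA, searched on both strands) and the CCAAT box (CCAAT, searched on both strands). The windows are chr2:74198365-74198614 (plus strand) for MTHFD2, chr9:78296875-78297124 (plus strand) for PSAT1, chr6:150866236-150866485 (plus strand) for the first listed start of MTHFD1L, chr14:64388103-64388352 (plus strand) for MTHFD1 and chr17:18363551-18363800 (minus strand) for SHMT1.
MTHFD2: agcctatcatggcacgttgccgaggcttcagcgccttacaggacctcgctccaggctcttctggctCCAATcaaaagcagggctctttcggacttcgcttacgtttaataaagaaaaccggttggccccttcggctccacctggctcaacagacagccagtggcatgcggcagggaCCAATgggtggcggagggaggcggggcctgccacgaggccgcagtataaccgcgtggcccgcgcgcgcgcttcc
PSAT1: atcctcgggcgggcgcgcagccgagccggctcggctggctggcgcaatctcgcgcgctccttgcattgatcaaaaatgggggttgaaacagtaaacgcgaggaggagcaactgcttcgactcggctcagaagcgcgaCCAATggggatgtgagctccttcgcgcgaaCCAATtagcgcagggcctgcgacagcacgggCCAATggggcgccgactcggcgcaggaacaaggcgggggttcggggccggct
MTHFD1L: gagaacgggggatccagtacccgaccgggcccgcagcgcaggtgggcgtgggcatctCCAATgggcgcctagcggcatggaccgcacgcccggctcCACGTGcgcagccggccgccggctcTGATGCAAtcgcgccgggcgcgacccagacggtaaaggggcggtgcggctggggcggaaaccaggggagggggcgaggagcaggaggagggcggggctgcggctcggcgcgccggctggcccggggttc
MTHFD1: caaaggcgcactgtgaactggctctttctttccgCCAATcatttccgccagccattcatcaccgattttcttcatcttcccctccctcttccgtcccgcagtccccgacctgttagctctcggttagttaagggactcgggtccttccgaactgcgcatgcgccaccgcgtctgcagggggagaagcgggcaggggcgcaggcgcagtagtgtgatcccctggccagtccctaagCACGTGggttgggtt
SHMT1: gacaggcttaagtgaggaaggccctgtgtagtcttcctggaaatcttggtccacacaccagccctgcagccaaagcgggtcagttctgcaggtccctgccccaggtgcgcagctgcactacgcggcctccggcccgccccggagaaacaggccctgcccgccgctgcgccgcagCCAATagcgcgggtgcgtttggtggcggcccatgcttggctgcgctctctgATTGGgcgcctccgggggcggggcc

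An E-box was found for 2 of the 7 members, MTHFD1L, where it starts 154 bases before the first listed start, and MTHFD1, where it starts 15 bases before it. It was found in 7.26% of the 35116 windows of 300 bases in the table, or for 8.77% of its 27305 genes. The composite element was found for MTHFD1L alone among the 7 members, 129 bases before its first listed start, and in 3.62% of all windows, or for 4.46% of the genes. A CCAAT box was found for 6 of the 7 members and in 34.6% of all windows, or for 39.7% of the genes in the table. It occurs 3 times in the window of PSAT1, at 113, 83 and 52 bases before the start, and at 184 and 74 bases before the start of MTHFD2. Of the 4 windows of MTHFD1L, 3 overlap and hold the same matches, with the E-box 154, 115 and 1 bases before their starts, and the window of the remaining start holds none of these patterns. MTHFD2 and PSAT1 have 1 window each, in which only the CCAAT box was found. These are matches of letters, and windows further from the start were not searched.

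Other genes of one-carbon metabolism were described as 8 lists with 42 genes in the table, of which 31 averaged 1 FPKM or more. In the MYC line with Dox, 5 of the 31 rose and 3 fell at least 1.5-fold, or 16.1% and 9.68%, beside 5.9% and 8.85% of all genes. In the control line 0 of the 31 passed in either direction. The median log2 change over the 31 genes was 0.15 in the MYC line and 0.00 in the control line. Genes that passed were thus found in both directions.

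Genes next to the members in the pathway differed among themselves. SLC19A1, the reduced folate carrier of the plasma membrane, rose from 7.79 to 16.4 FPKM with Dox in the MYC line, a log2 change of 1.07, and had 7.47 and 7.71 FPKM in the control line. GGH, which removes glutamate residues from stored folates, fell from 159 to 101 FPKM, a log2 change of -0.65, and had 155 and 145 FPKM in the control line. SLC25A32, which carries folate into mitochondria, had 19.8 and 27.9 FPKM, a log2 change of 0.50 that stayed below 1.5-fold.

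GART, which uses formyl-folate in purine synthesis, rose from 27.1 to 45.9 FPKM with Dox in the MYC line, a log2 change of 0.76 beside 0.15 in the control line. ATIC, the later purine enzyme that uses the same cofactor, had 133 and 159 FPKM, a log2 change of 0.26. In thymidylate synthesis no gene passed 1.5-fold: TYMS was at 49.998 and 50.009 FPKM in the MYC line without and with Dox.

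GLDC, the decarboxylase of the glycine cleavage system, fell from 14.8 to 9.35 FPKM with Dox in the MYC line, a log2 change of -0.66. It was also lower with Dox in the control line, at 14.99 and 11.6 FPKM, so the changes in the lines differed by -0.29. The other 2 genes tested of this system rose in the MYC line without reaching 1.5-fold there. GCSH went from 66.5 to 95.6 FPKM and DLD from 34.6 to 40.8 FPKM. CBS, which condenses serine with homocysteine, rose from 2.17 to 4.203 FPKM and so by 0.92 on the log2 scale beside 0.06 in the control line. CTH, the next enzyme of transsulfuration, rose from 5.50 to 8.68 FPKM, by 0.65 on the log2 scale, and had 5.44 and 7.38 FPKM in the control line, a log2 change of 0.43. In the methionine cycle 0 of the 7 genes tested passed 1.5-fold, and AHCY, its most abundant gene, had 158 and 211 FPKM without and with Dox in the MYC line. In the other folate interconversion list 0 of the 4 genes tested passed, and MTHFS, its most abundant gene, had 17.2 and 16.3 FPKM.

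The serine transporters moved in opposite directions. SLC1A5, a carrier of neutral amino acids, rose from 111 to 171 FPKM with Dox in the MYC line, a log2 change of 0.61, while SLC1A4, a carrier with preference for alanine, serine and cysteine, fell from 113 to 71.4 FPKM, a log2 change of -0.66. SFXN1, the mitochondrial serine transporter, had 24.4 and 32.9 FPKM, a log2 change of 0.43. In the control line the log2 changes were 0.15 for SLC1A5, -0.11 for SLC1A4 and -0.16 for SFXN1.

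PHGDH, PSAT1, SHMT2 and MTHFD2 are also known as genes of the ATF4 response. ATF4 had 209 and 224 FPKM in the control line without and with Dox, and 197 and 303 FPKM in the MYC line without and with Dox. ASNS, the asparagine synthetase that is a known ATF4 target, had 8.88 and 13.4 FPKM in the control line and 6.72 and 21.1 FPKM in the MYC line. In the MYC line the log2 changes were 0.62 for ATF4 and 1.64 for ASNS, both past 1.5-fold, beside 0.09 to 0.90 for these 4 enzyme genes. In the control line they were 0.10 for ATF4 and 0.59 for ASNS, beside 0.07 to 0.13 for the same enzyme genes. ASNS thus also passed 1.5-fold with Dox in the control line, where 0.709% of all genes tested rose at least 1.5-fold. Its value there lay close to the threshold of 0.585, with a counting error of 0.0661. Between the untreated lines, MYC line minus control line, ASNS differed by -0.40 on the log2 scale. Against the control line with Dox, its log2 difference in the MYC line with Dox was 0.65.

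Genes whose pattern over the 4 libraries was most like each group were found by the Euclidean distance between centred log2 values, among 7466 other genes averaging 5 FPKM or more. The mitochondrial folate genes were nearest to UCHL5, a deubiquitinase of the proteasome, at a distance of 0.0279, to TOP1MT, the mitochondrial topoisomerase, at 0.0294, and to GTPBP3, an enzyme of mitochondrial tRNA modification, at 0.0295. UCHL5 had 17.3 and 17.8 FPKM in the control line without and with Dox, and 18.1 and 30.8 FPKM in the MYC line. The serine synthesis genes were nearest to SF3B5, a subunit of the splicing factor SF3B, at 0.0241, to PPP6R1 at 0.0260 and to ABT1 at 0.0265. The cytosolic pair was nearest to ATAD1, APPL1 and GXYLT2, at 0.00428, 0.00613 and 0.00843. With 4 libraries many genes lie close to any pattern, and the mean of PHGDH, PSAT1 and PSPH hides their unequal changes.

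Several members share sequence or position with other annotated genes. The annotation holds 7 pseudogenes named after MTHFD2, 4 of PSAT1 and 1 each of PSPH, SHMT1 and MTHFD1, and reads could have been divided between such copies and the genes. Genes that overlap a member and were themselves at 1 FPKM or more were SLC4A5 for MTHFD2, SMCR8 for SHMT1 and ZBTB25 for MTHFD1, all on the opposite strand, and whether the strand of the reads was used is not given in the sources used here.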

How the data were processed

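RNA of the 4 conditions was sequenced on a HiSeq4000. As deposited, the values are FPKM that the authors had computed for each gene symbol. The submitters' processing notes name TopHat2 2.0.14, Cufflinks and the builds hg19 and GRCh37, without their roles. From 27032 rows, 1 unnamed row was dropped, and the rows of each of 609 repeated symbols were added up. Changes are differences of log2(FPKM + 0.1), a scale that compresses changes at low levels. Genes averaging at least 1 FPKM over the 4 libraries were called at 1.5-fold. With 1 library in every condition, no test was made.

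Depth was estimated from the steps between the smallest FPKM values. Of 3665 genes under 0.2 FPKM, 65.7% held whole multiples of a step (up to 12, tolerance 1.2%). In 223 of them, the step and the length of the only annotated transcript gave 3.90e+07 fragments for the untreated control line (quartiles 3.46e+07 and 4.07e+07). Counting errors rest on this depth and on canonical transcripts of GENCODE release 44, so another isoform would shift them.

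All 9 members are named, and from each other list those past 1.5-fold in either line or, where none was, the most abundant gene. SLC25A32, ATIC, SFXN1, GCSH, DLD, EPCAM and the genes under 1 FPKM were named after their values were seen. The members, lists and motifs were chosen with earlier results of these data known. The calculations were tested on simulated data with known 2-fold changes and the noise of fragment sampling alone. This checked the code, and it does not show how reliable a call at 1.5-fold is between single cultures. Alternatives were other pseudocounts, filters, scalings, thresholds, summaries and a different reference library. Software was Python 3.11.15 with pandas 2.3.3, numpy 2.4.6 and matplotlib 3.10.9.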

Additional observations from a re-analysis of the deposited data

Results flagged for a closer look

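The change with Dox had opposite signs in the lines for 2 members, and with 1 library per condition this difference was not tested. MTHFD1L had a log2 change of 0.65 in the MYC line and -0.05 in the control line, a difference of 0.70 with a counting error of 0.0438. The value in the control line had a counting error of 0.0343, so its sign there is uncertain. MTHFD1 had 0.35 in the MYC line and -0.07 in the control line, a difference of 0.42 with a counting error of 0.0447, and the counting error in the control line was 0.0336.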

How the results depend on the processing

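No paired analysis was possible because no condition had a replicate library. For the summary results, 62 of 66 recalculated values moved by less than 1.96 counting errors or, for counts, by less than 1.5 times. At a threshold of 2-fold, 0 members and 1 of the other one-carbon genes passed in the MYC line. The highest fold of a member there was 1.87 for MTHFD2. Of all genes tested, 117 were higher and 228 lower by this threshold. Without the filter on low values, MTHFD2L entered and the median log2 change of the members in the MYC line was 0.35, and 1 other one-carbon gene passed in the control line. Otherwise this median lay between 0.45 and 0.54, and 4 members passed in the MYC line, except against the control line with Dox, where SHMT2 had 0.54 and 3 passed. For the single genes, 124 of 136 values moved by less than 1.96 counting errors and none of the 4 genes that rose changed direction. The filters and the removal of repeated symbols could not alter the change of a single member, so those values were the same in advance. All larger moves came with a rescaling of the libraries or the other reference library. PHGDH moved most often, between 0.04 and 0.14 in the MYC line. SHMT1 was at -0.06 to 0.13 in the MYC line across the alternatives, so it has no stable direction. Depth limits MTHFD2L most, whose counting error was 0.396 on the log2 scale in the MYC line. The approximate depth leaves out differences between cultures.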

Other observations

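Of the other one-carbon genes in the table, 11 had a mean below 1 FPKM and belong to no comparison above. They include enzymes known mainly from liver and kidney: BHMT and BHMT2, which methylate homocysteine from betaine and related donors, were at most 0.0101 and 0.0103 FPKM in any library, SDS was listed at 0 in all 4, and GNMT, the glycine methyltransferase, had 0.0262 to 0.222 FPKM. The folate receptors FOLR1 and FOLR2 had at most 0.0615 and 0.0564 FPKM in any library, beside 7.47 to 16.4 FPKM for the carrier SLC19A1. The formyl-folate dehydrogenases differed, with 0.0281 to 0.0728 FPKM for the cytosolic ALDH1L1 and 0.589 to 0.763 FPKM for the mitochondrial ALDH1L2. AMT, the aminomethyltransferase of the glycine cleavage system, had 0.316 to 0.471 FPKM, while its partners GCSH and DLD had 61.9 to 95.6 FPKM and 32.7 to 40.8 FPKM.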
